A study of Mus musculus with 2 samples.

Results

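The basic helix-loop-helix PAS (bHLH-PAS) transcription factors were followed in MIN6 cells, an insulin-secreting line from a mouse insulinoma that stands in for pancreatic beta cells. The 10 genes were taken by symbol from a list that holds the neuronal PAS genes Npas1, Npas2, Npas3 and Npas4, the hypoxia-inducible factor genes Hif1a and Epas1, the aryl hydrocarbon receptor gene Ahr, Sim1, and the partner genes Arnt and Arnt2. All 10 were found, each as a single row among the 55466 genes listed per library. After 0.5 h of equilibration at 2.8 mM glucose, cells spent 1 h at 25 mM glucose, a level that triggers insulin secretion, or at 2.8 mM glucose, a low level, in both cases in a bicarbonate-buffered salt solution. Both groups were the same unmodified cell line, with 1 library per group. There is therefore no replicate error and no test for any value, and each difference is one between 2 libraries. The members were chosen by the difference of Npas3 in FPKM between these libraries and by kinship to it, so the Npas3 values are a description.

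bHLH-PAS proteins bind DNA as pairs. A subunit that is regulated by oxygen, a ligand, neuronal activity or tissue pairs with a general partner, ARNT or its relative ARNT2, or in the circadian clock with BMAL1. HIF-1alpha and HIF-2alpha are made continuously and destroyed when oxygen is present, so their messages need not follow their activity. In beta cells, ARNT, HIF-1alpha and the activity-induced factor NPAS4 are known for effects on insulin secretion and stress resistance, whereas NPAS1, NPAS3 and SIM1 are known mainly from the nervous system.

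Because members of the family recognise short related motifs, the start regions of the member that differed and of 3 of the other members are shown, from RefSeq on GRCm38.p6. Each window runs from 250 bases before to 50 bases after the RefSeq start. The Npas3 window ends before 53248677, the gene start in the annotation used for transcripts below. It does not cover the annotated Npas3 transcripts that start at 53253025 and 53253046. Capitals mark ACGTG, a core bound by HIF with ARNT, GCGTG, a core bound by AHR with ARNT, and CACGTG, the E-box of clock factors. No match is assigned to a single factor here. Both strands were searched, so that CACGT and CACGC in capitals are matches on the other strand.
Npas3 promoter, chr12:53248182-53248481, plus strand: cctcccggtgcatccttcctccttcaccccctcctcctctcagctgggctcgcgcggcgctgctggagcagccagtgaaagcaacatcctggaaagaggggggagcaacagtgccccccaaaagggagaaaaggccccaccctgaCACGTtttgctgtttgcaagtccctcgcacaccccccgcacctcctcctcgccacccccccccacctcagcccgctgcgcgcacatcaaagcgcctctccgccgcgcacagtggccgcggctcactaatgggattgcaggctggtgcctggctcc
Hif1a promoter, chr12:73907617-73907916, plus strand: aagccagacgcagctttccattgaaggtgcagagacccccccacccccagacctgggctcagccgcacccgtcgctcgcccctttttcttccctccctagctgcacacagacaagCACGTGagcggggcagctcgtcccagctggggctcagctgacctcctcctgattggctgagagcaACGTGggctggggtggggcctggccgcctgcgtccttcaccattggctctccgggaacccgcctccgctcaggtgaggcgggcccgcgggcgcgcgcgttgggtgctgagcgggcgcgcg
Arnt promoter, chr3:95434140-95434439, plus strand: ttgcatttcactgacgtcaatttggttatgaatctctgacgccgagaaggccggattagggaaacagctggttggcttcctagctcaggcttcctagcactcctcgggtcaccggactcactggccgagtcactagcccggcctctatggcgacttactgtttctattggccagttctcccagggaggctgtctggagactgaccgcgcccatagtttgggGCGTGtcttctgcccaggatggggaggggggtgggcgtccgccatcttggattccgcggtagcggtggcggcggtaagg
Npas4 promoter, chr19:4989922-4990221, minus strand: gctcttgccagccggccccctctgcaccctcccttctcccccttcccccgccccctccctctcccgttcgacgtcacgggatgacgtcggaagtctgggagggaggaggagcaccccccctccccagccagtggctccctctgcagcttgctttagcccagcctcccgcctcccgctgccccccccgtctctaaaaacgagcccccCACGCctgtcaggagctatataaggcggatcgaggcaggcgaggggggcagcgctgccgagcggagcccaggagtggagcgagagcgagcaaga
The Npas3 window held 1 ACGTG and 0 GCGTG. The Hif1a window held 1 CACGTG, which contains ACGTG on both strands, and 3 ACGTG in all. The windows of Arnt and Npas4 each held 1 GCGTG and 0 ACGTG. Of the windows not shown, those of Arnt2, Npas1 and Sim1 held 0 matches, and that of Npas2 held 1 ACGTG and 1 GCGTG. Of 32851 promoter windows, 19.6% held ACGTG, 32.4% GCGTG and 7.15% CACGTG, so these matches are common. Windows were found for 8 of the 10 members.

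Hif1a was the most abundant of the 10 genes, followed by Arnt, Npas3, Arnt2 and Npas4, and the order of these 5 was the same in both libraries. Values are FPKM, fragment counts divided by gene length and by library depth, which allows levels to be compared between genes. These 5 genes had a mean of at least 1 FPKM over both libraries, the level taken as expressed, and the other 5 (Npas1, Npas2, Epas1, Ahr and Sim1) were below it. Without replicates, neighbours in this order cannot be separated by their spread.

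**Figure D1:**
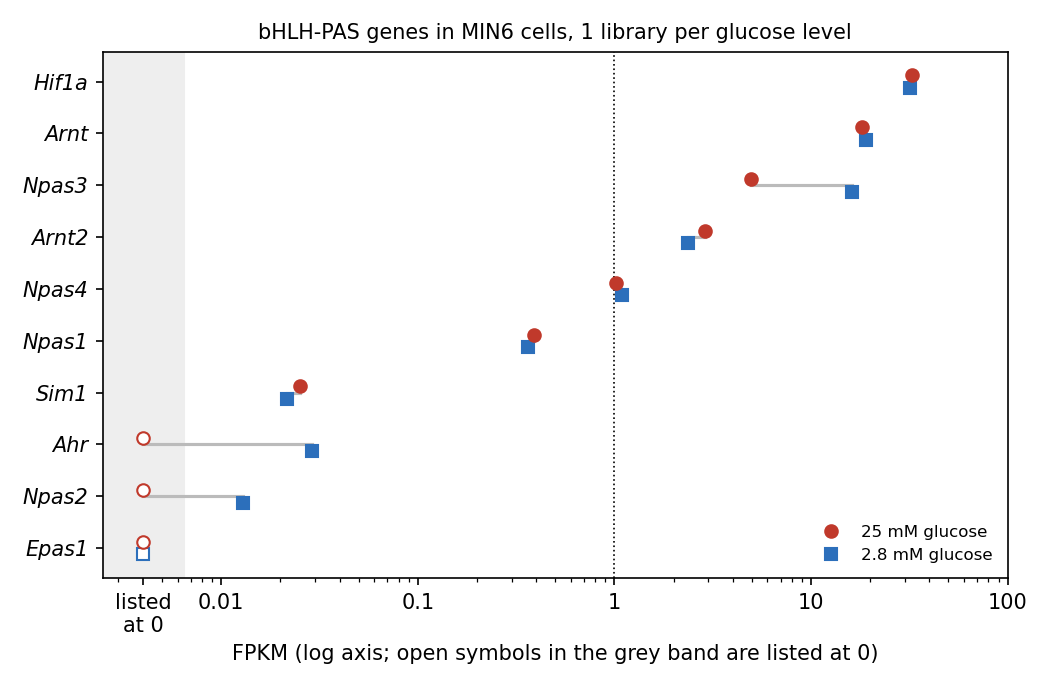
FPKM of the 10 genes on a log axis, with circles for the 25 mM library and squares for the 2.8 mM library. Open symbols in the grey band are listed at 0 and the dotted line marks 1 FPKM. Npas3 is the expressed gene whose symbols lie far apart, at 4.96 and 16.3 FPKM.

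Npas3 encodes a neuronal PAS factor that pairs with ARNT-type partners and is known from brain development. It was at 4.96 FPKM at 25 mM against 16.3 FPKM at 2.8 mM. The 25 mM value was 3.28-fold lower. On the scale used for all genes, log2((FPKM at 25 mM + 1)/(FPKM at 2.8 mM + 1)), the change was -1.53. This scale understates the change of low genes. In bulk RNA, fewer cells with the message and less of it per cell cannot be told apart.

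No other expressed member was 1.5-fold apart. Hif1a, which encodes the oxygen-regulated HIF-1alpha, was at 32.6 FPKM at 25 mM against 32.02 FPKM at 2.8 mM, giving a log2 change of 0.03. Arnt, for the shared partner, was at 18.2 FPKM at 25 mM against 19.1 FPKM at 2.8 mM, giving a log2 change of -0.07. Arnt2, for the partner that is abundant in neurons, was at 2.88 FPKM at 25 mM against 2.38 FPKM at 2.8 mM, giving a log2 change of 0.20. Npas4, an immediate early gene induced by calcium entry, was at 1.02 FPKM at 25 mM against 1.10 FPKM at 2.8 mM, giving a log2 change of -0.05.

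The 4 expressed members other than Npas3 thus ran from -0.07 to 0.20, with a median log2 change of -0.01, against -0.02 for all 12694 expressed genes. Of the 5 expressed members, 1 was at least 1.5-fold lower at 25 mM and 0 were at least 1.5-fold higher. Among all expressed genes the shares were 2.51% in the lower direction and 1.95% in the higher one. The member that was lower is the one the list was built around, so nothing is read from its count.

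**Figure D2:**
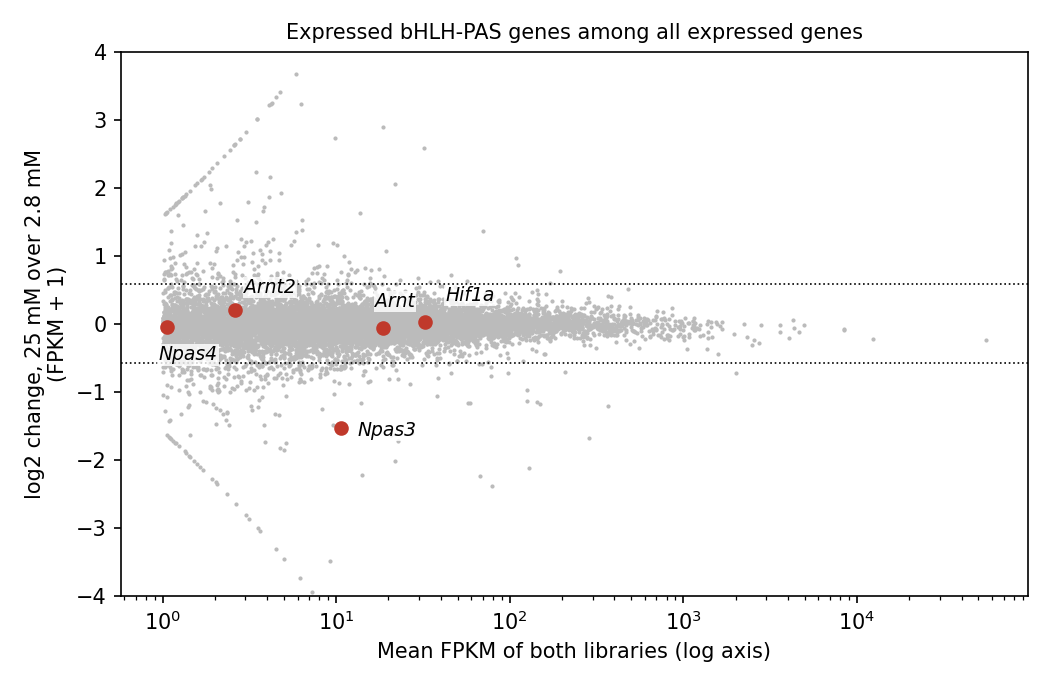
Log2 change (25 mM over 2.8 mM, FPKM + 1) against mean FPKM on a log axis for the 12694 expressed genes in grey and the 5 expressed bHLH-PAS genes in red. Dotted lines mark 1.5-fold, and 30 genes beyond a log2 change of 4 in either direction are not drawn. Npas3 lies at -1.53, and Hif1a, Arnt, Arnt2 and Npas4 lie between the dotted lines.

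Each member was then placed among genes of like level. Of 3975 protein-coding genes with a mean within 2-fold of that of Npas3, 4 were farther from 0 than it was (0.101%), and 98.1% were within 1.5-fold. For Hif1a, 84.2% of 3936 such genes were farther from 0 than it was. For Arnt the share was 62.9% of 4318, for Arnt2 37.7% of 2029 and for Npas4 83.7% of 1481. Over the 8747 protein-coding genes with a mean of at least 5 FPKM, Npas3 had the 5th lowest log2 change. The genes below it were Gm14419 (-5.53), Gm14391 (-3.49), Mat2a (-1.72) and Gapdh (-1.61). Npas3 was chosen for its difference between these same libraries, so its share and its rank are descriptions and test nothing.

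The value of Npas3 rests on 4 annotated transcripts, whose separate levels are not given by a gene-level table. The gene lies on the plus strand of GRCm38 chromosome 12, from 53248677 to 54072175, and spans 823 kb (ENSMUSG00000021010). Npas3-201 is 5879 nt long, Npas3-204 3143 nt and Npas3-203 2724 nt. Npas3-202, a partial coding transcript, is 214 nt long and has 2 exons. The fragments sequenced were fitted at 270 nt in the 25 mM library and 290 nt in the 2.8 mM library, so Npas3-202 is shorter than a typical fragment, and FPKM is poorly estimated for such transcripts.

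The coding part of Npas3-202 is shown because that transcript is shorter than the fitted fragments. Its 50 bases from the alternative first exon are in capitals and the 143 bases from the second exon, which codes for part of the helix-loop-helix region, are in lower case. The whole of it also lies in Npas3-203.
Npas3-202 coding part, chr12:53253046-53501176, plus strand, exons joined: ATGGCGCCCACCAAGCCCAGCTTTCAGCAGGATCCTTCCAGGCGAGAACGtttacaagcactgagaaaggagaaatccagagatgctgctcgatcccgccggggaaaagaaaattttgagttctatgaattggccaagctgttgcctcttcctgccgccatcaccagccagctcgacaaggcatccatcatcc

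**Figure D3:**
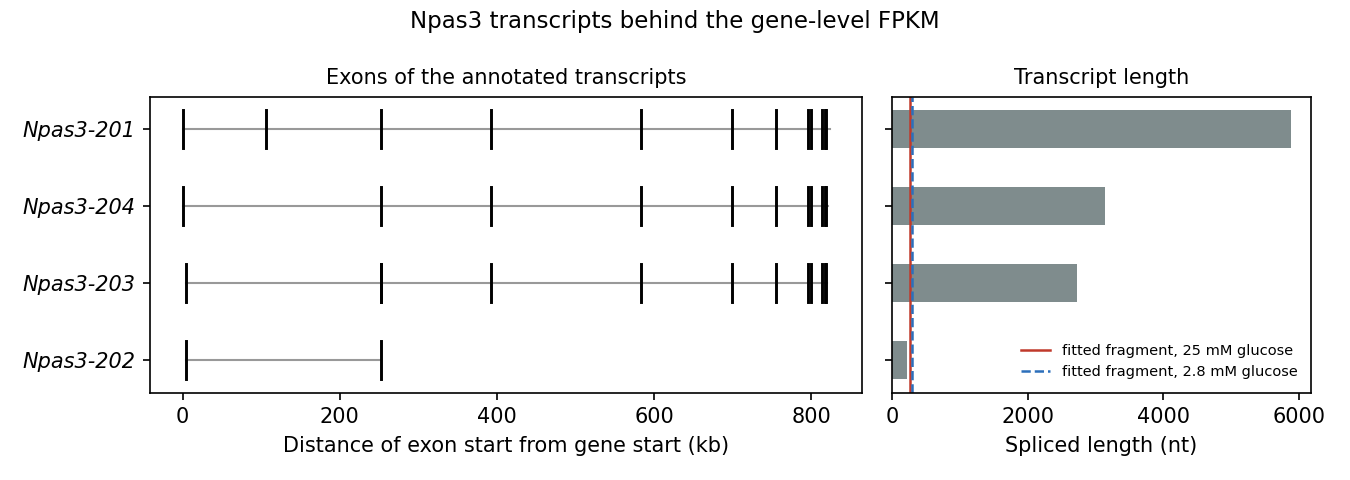
The 4 annotated Npas3 transcripts, with the start of each exon as a tick at its distance from the gene start (left, kb) and the spliced length as a bar (right, nt). Vertical lines mark the fitted fragment lengths of 270 nt at 25 mM and 290 nt at 2.8 mM. Npas3-202, at 214 nt, ends short of both lines.

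If all fragments lay on the longest transcript, the FPKM of Npas3 would stand for 467 fragments at 25 mM and 1787 at 2.8 mM. On Npas3-203 it would stand for 204 and 778 fragments. On the longest transcript the exact Clopper-Pearson 95% interval of the log2 ratio without pseudocount (-1.71) was -1.86 to -1.56, which covers counting error alone and compares these libraries, not the conditions. Computed the same way, the log2 ratio was 0.28 for Arnt2 (0.03 to 0.52), -0.07 for Arnt (-0.18 to 0.04) and 0.03 for Hif1a (-0.05 to 0.10). Npas3 was chosen for its difference, so nothing is read from its interval leaving out 0. On a shorter transcript Npas3 would rest on fewer fragments and its interval would be wider. No count is given for Npas3-202, which is shorter than the fitted fragments. The interval of Arnt2, which also leaves out 0, assumes 288 fragments at 25 mM and 278 at 2.8 mM on its longest transcript. On a shorter Arnt2 transcript the FPKM would stand for 19.8 and 18.2 fragments. The fragments on each transcript were not measured, and the part of transcript use, that of Npas3-202 included, in the difference was not tested.

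Genes that also have a transcript shorter than the fitted fragments were counted for comparison. Of 784 such expressed protein-coding genes, 5.23% were at least 1.5-fold apart in either direction, against 2.02% of 10171 without one, 2.25% of all 10963 expressed protein-coding genes and 4.45% of expressed genes of every type. Among the members, Npas3 and Arnt2 have such a transcript. The shortest transcript of Arnt2 is 196 nt, that of Arnt 378 nt, that of Hif1a 484 nt and that of Npas4 2453 nt. Without these genes, which was chosen once the values were known, 0 members were at least 1.5-fold lower. This holds by construction, since Npas3 itself is left out.

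Stretches shared with other genes were counted in the annotation, since reads from them can be assigned to either gene. Of the 31-mers of the Npas3 transcripts, 0.904% occur in transcripts of other annotated genes. The highest share among the members was that of Hif1a at 6.72%. The antisense gene 1700060O08Rik, which overlaps an exon of Npas3 by 83 bases, was listed at 0 in both libraries. Of the protein-coding genes next to Npas3, Akap6, 93.1 kb before it, was at 0.0817 FPKM at 25 mM against 0.118 FPKM at 2.8 mM. Egln3, 107 kb after it, was listed at 0 in both libraries, and Sptssa, 573 kb after it, was at 78.3 FPKM at 25 mM against 76.5 FPKM at 2.8 mM. The nearest expressed neighbour on the other side, Arhgap5, was at 43.4 FPKM at 25 mM against 48.2 FPKM at 2.8 mM. Hif1a and Ahr lie on the same chromosome as Npas3.

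The 5 protein-coding genes with a mean of at least 5 FPKM whose log2 change lay closest to that of Npas3 were CAAA01147332.1, Gapdh, Mat2a, Sumo2 and 1810049J17Rik, at distances of 0.04, 0.07, 0.19, 0.37 and 0.47 in log2 over the 2 libraries. Gapdh, a glycolytic enzyme gene, was at 13.0 FPKM at 25 mM against 41.7 FPKM at 2.8 mM. Among other glycolytic genes at 25 mM, Pgk1 was at 638 FPKM, Eno1 at 448 FPKM and Aldoc at 4.04 FPKM. They were named after their values were seen. Whether the Gapdh value is a poor estimate was not tested. Mat2a, which encodes the enzyme that makes S-adenosylmethionine, was at 10.0 FPKM at 25 mM against 35.4 FPKM at 2.8 mM. Sumo2, for a small ubiquitin-like modifier, was at 34.9 FPKM at 25 mM against 79.7 FPKM at 2.8 mM. CAAA01147332.1 was at 4.51 and 14.6 FPKM, and 1810049J17Rik at 24.2 and 51.8 FPKM, at 25 mM and 2.8 mM. Of the 31-mers of Gapdh, Mat2a, Sumo2 and 1810049J17Rik, 28.1%, 19.5%, 22.5% and 97.2% occur in other annotated genes. How many reads were shared was not measured, and the part of shared reads in any of these differences was not tested.

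The messages of subunits that pair with ARNT or ARNT2 were summed to set them beside their partners. The 7 such members (Hif1a, Epas1, Ahr, Sim1, Npas1, Npas3 and Npas4) reached 39.0 FPKM at 25 mM against 49.8 FPKM at 2.8 mM. The 2 partners reached 21.05 FPKM at 25 mM against 21.4 FPKM at 2.8 mM. Without Npas3 the subunits stood at 34.0 FPKM at 25 mM against 33.5 FPKM at 2.8 mM. Npas3 made up 12.7% of the subunit sum at 25 mM and 32.7% at 2.8 mM, and Hif1a 83.6% at 25 mM and 64.3% at 2.8 mM. Arnt exceeded Arnt2 by 6.30-fold at 25 mM and 8.02-fold at 2.8 mM in FPKM.

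**Figure D4:**
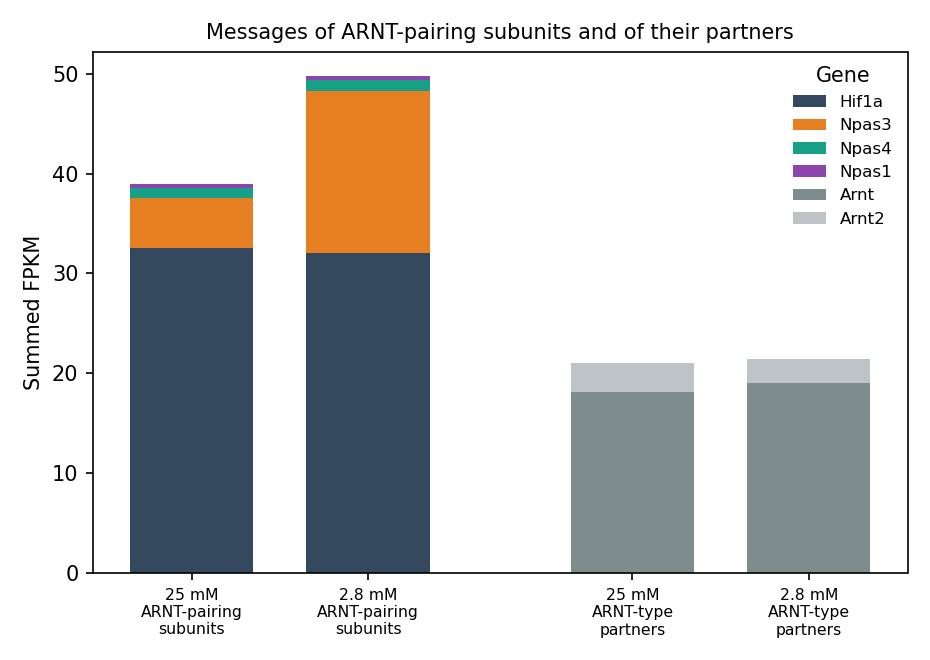
Summed FPKM of the subunits that pair with ARNT or ARNT2 (left pair of bars) and of these partners (right pair), with 25 mM left of 2.8 mM in each pair. Subunits below 0.03 FPKM in both libraries are too low to draw. The Npas3 segment is the part that differs, at 4.96 and 16.3 FPKM, while Hif1a is at 32.6 and 32.02 FPKM.

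The low members rested on a handful of fragments. Npas1, which encodes a repressor known from interneurons of the brain, was at 0.388 FPKM at 25 mM against 0.365 FPKM at 2.8 mM. On its longest transcript this would stand for 16 fragments (exact Poisson 95% interval 9.15 to 26.0, for counting error only) and 18 (10.7 to 28.4). Sim1, needed for hypothalamic neurons, was at 0.0252 FPKM at 25 mM against 0.0216 FPKM at 2.8 mM, equal to 3 fragments in each library (0.619 to 8.77). For Npas1 and for Sim1 alike, the fragment count in each library lay within that gene's interval in the other library.

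Ahr, which encodes the receptor for dioxins and tryptophan metabolites, was listed at 0 at 25 mM and was at 0.0290 FPKM at 2.8 mM, equal to 3 fragments on its longest transcript. Npas2, which can replace CLOCK in the clock, was listed at 0 at 25 mM and was at 0.0129 FPKM at 2.8 mM, equal to 1 fragment (0.0253 to 5.57). Epas1, which encodes HIF-2alpha and is best known from endothelium, was listed at 0 in both libraries. Higd1a, a mitochondrial protein gene used by most cells, was also listed at 0 in both libraries, so a 0 can be a failed estimate and no upper limit is given. Differences of 1 to 3 fragments cannot be told from counting error at this depth.

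Relatives outside the 10 genes filled in the rest of the family. Clock was at 22.9 FPKM at 25 mM against 26.0 FPKM at 2.8 mM, whereas Npas2 rested on at most 1 fragment. Its partner gene Arntl, for BMAL1, was at 10.6 FPKM at 25 mM against 9.61 FPKM at 2.8 mM, and the related Arntl2 at 1.01 and 1.22 FPKM. The coactivator genes with the same domains were at 18.2 and 16.5 FPKM for Ncoa1, 12.2 and 11.9 FPKM for Ncoa2, and 6.71 and 7.34 FPKM for Ncoa3, at 25 mM and 2.8 mM. Hif3a, for a HIF inhibitor in some isoforms, and Sim2 were listed at 0 in both libraries. Ahrr, for the AHR repressor, was at 0.0277 FPKM at 25 mM and listed at 0 at 2.8 mM. Of these 9 relatives 6 were expressed, with a median log2 change of -0.04, 3 below and 3 above 0. At least 1.5-fold apart were 0 of the 6, against 4.45% of all expressed genes. With so few genes nothing is read from this count.

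Genes that sense oxygen or control the turnover and activity of HIF-alpha subunits were expressed apart from 1. Egln1, for the main oxygen-sensing prolyl hydroxylase, was at 24.2 FPKM at 25 mM against 23.1 FPKM at 2.8 mM, and Vhl, for the ubiquitin ligase subunit that binds hydroxylated HIF, at 15.3 FPKM at 25 mM against 15.7 FPKM at 2.8 mM (both were named after their values were seen). Egln3 was the 1 listed at 0. The ends of this list were Ep300 (9.15 FPKM at 25 mM, 10.1 FPKM at 2.8 mM) and Rbx1 (53.0 and 58.1 FPKM) at the low end, and Eloc (175 and 155 FPKM) and Cul2 (36.0 and 33.4 FPKM) at the high end. Of 11 expressed genes of 12, 0 were at least 1.5-fold apart, against 4.45% of all expressed genes. With so few genes nothing is read from this count. The median log2 change was -0.02, as for all expressed genes.

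Genes downstream of HIF included 2 that were at least 1.5-fold lower at 25 mM. These were Ak4, a mitochondrial adenylate kinase gene (0.656 FPKM at 25 mM, 1.64 FPKM at 2.8 mM, log2 difference -0.67), and Pdk1, for a kinase that inhibits pyruvate dehydrogenase (9.22 FPKM at 25 mM, 15.1 FPKM at 2.8 mM, log2 difference -0.65). The mean of Ak4 lies close above the level of 1 FPKM taken as expressed, and its fragments were not counted. At the other end, the lipid droplet gene Hilpda was at 3.68 FPKM at 25 mM against 3.08 FPKM at 2.8 mM, and the glucose transporter gene Slc2a1 at 8.75 FPKM at 25 mM against 8.002 FPKM at 2.8 mM. Of 34 genes 28 were expressed, 18 below and 10 above 0, with a median log2 change of -0.09. Most expressed genes were below 0 too, with a median of -0.02. The 2 of 28 stand beside the 2.51% of all expressed genes that were at least 1.5-fold lower. After rescaling to equal FPKM sums the median of the HIF list was -0.03, with 16 below 0. With mitochondrial and the 10 most abundant genes left out of that sum it was -0.05, again with 16 below 0. The medians of all expressed genes were then 0.04 and 0.02. Of 13 genes known to prefer HIF-2alpha 3 were expressed, with a median of -0.12. They were the iron transporter genes Slc40a1 (1.92 FPKM at 25 mM, 2.41 FPKM at 2.8 mM) and Slc11a2 (13.5 and 14.8 FPKM) and the growth factor gene Tgfa (3.34 and 2.27 FPKM). Epo, Edn1, Cdh5 and Kdr were listed at 0 in both libraries.

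**Figure D5:**
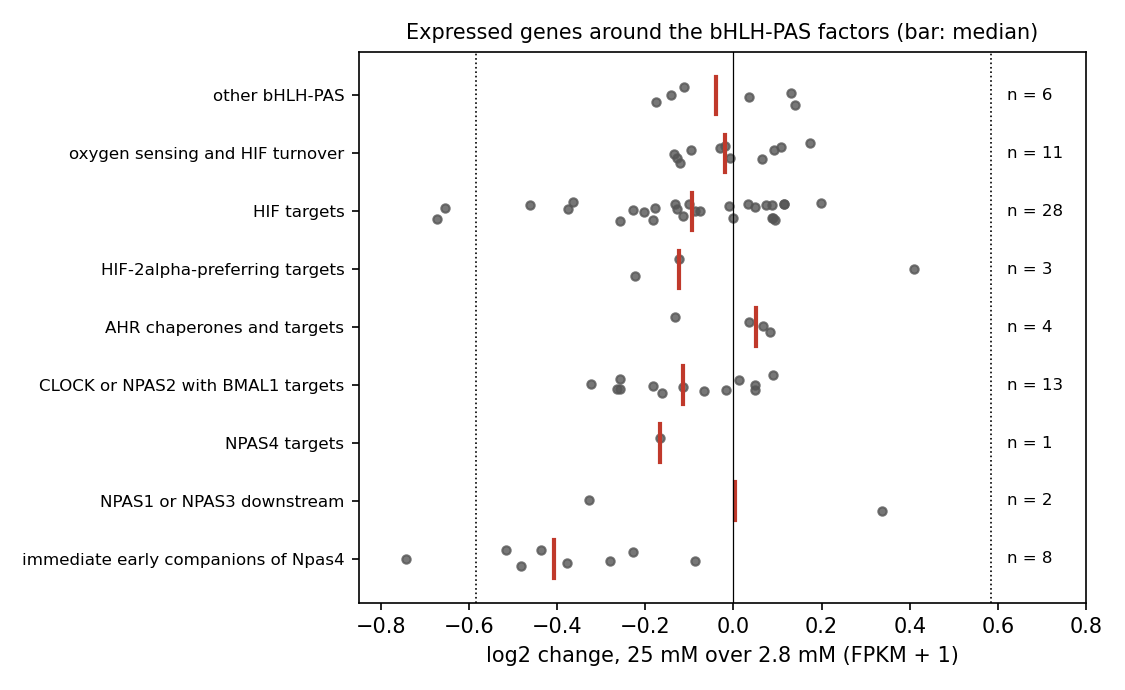
Log2 change (25 mM over 2.8 mM, FPKM + 1) of each expressed gene in the lists around the bHLH-PAS factors, 1 point per gene, with the list median as a red bar and 1.5-fold as dotted lines. In the HIF target list 2 points lie beyond the low dotted line, and all 8 immediate early genes lie below 0. The median of all expressed genes, -0.02, is also below 0.

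Of the AHR branch, chaperone genes and 1 target were expressed. Hsp90ab1, for the chaperone that holds the receptor in the cytosol, was at 1045 FPKM at 25 mM against 986 FPKM at 2.8 mM, and its partner genes Ptges3 and Hsp90aa1 were at 114 and 463 FPKM at 25 mM and 108 and 452 FPKM at 2.8 mM. Tiparp, a target gene that also responds to other signals, was at 12.5 FPKM at 25 mM against 13.8 FPKM at 2.8 mM. The xenobiotic enzyme genes Cyp1a2, Cyp1b1, Aldh3a1 and Gsta1 were listed at 0 in both libraries. Of 13 genes 4 were expressed, with a median log2 change of 0.05.

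All 13 targets of CLOCK or NPAS2 with BMAL1 were expressed, 9 below and 4 above 0, with a median log2 change of -0.12. Most expressed genes were below 0 too, with a median of -0.02. Of the 13 targets, 0 were at least 1.5-fold apart, against 4.45% of all expressed genes. After rescaling to equal FPKM sums the median of the 13 targets was -0.06, against 0.04 for all expressed genes. The ends were the period gene Per2 (5.01 FPKM at 25 mM, 6.52 FPKM at 2.8 mM) and the nuclear receptor gene Nr1d2 (70.8 and 85.2 FPKM), and Nr1d1 (20.1 and 18.8 FPKM) and Per3 (1.39 and 1.31 FPKM).

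Npas4 was at like levels in both libraries, and other immediate early genes were compared with it. All 8 expressed members of a list of 13 were below their level at 2.8 mM, with a median log2 change of -0.41. It was -0.05 for Npas4 itself, and the median was -0.02 for all expressed genes. With that median below 0, most expressed genes were below 0 too, and their share was not counted. Fosb was the 1 of 8 at least 1.5-fold lower, against 2.51% of all expressed genes, at 1.52 FPKM at 25 mM against 3.22 FPKM at 2.8 mM. Egr1 was at 11.5 FPKM at 25 mM against 16.9 FPKM at 2.8 mM, Jun at 9.32 and 11.1 FPKM, and Nr4a2 at 2.49 and 2.71 FPKM. On its longest transcript Npas4 would rest on 60 fragments at 25 mM and 75 at 2.8 mM, and the counting interval of its log2 ratio (-0.10) was -0.61 to 0.41. Whether Npas4 differed from the other genes was not tested. Of 5 genes known as NPAS4 targets 1 was expressed, the kinase gene Plk2 at 1.69 FPKM at 25 mM against 2.03 FPKM at 2.8 mM.

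Among genes reported downstream of NPAS1 or NPAS3, Vgf, a granule peptide precursor gene, was at 194 FPKM at 25 mM against 154 FPKM at 2.8 mM, a difference of 0.34 in log2. Fgfr1, a growth factor receptor gene, was at 0.808 FPKM at 25 mM against 1.27 FPKM at 2.8 mM (-0.33). These were the 2 expressed genes of 4, and Th and Epo were listed at 0 in both libraries. Of 7 genes downstream of SIM1 and ARNT2 in the hypothalamus 0 were expressed. Oxt was listed at 0 at 25 mM and was at 0.407 FPKM at 2.8 mM, and the other 6 were listed at 0 in both libraries.

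Both libraries carried the markers of the labelled cell type. All 10 beta-cell markers were expressed, with summed levels of 63851 FPKM at 25 mM against 73620 FPKM at 2.8 mM. Most of that difference was the insulin gene Ins2, at 50846 FPKM at 25 mM against 60328 FPKM at 2.8 mM. Of the 10 markers 6 were below and 4 above 0, with a median log2 change of -0.04, against -0.02 for all expressed genes. Of 8 neuronal markers, relevant since several members are neuronal genes, 4 were expressed, with sums of 301 FPKM at 25 mM against 294 FPKM at 2.8 mM, most of it from the neurofilament genes Nefl and Nefm, and Slc17a6 and Slc32a1 were listed at 0. Endothelial markers summed to 0.0417 FPKM at 25 mM against 0.0785 FPKM at 2.8 mM, with Pecam1, Cdh5, Kdr, Tie1 and Vwf listed at 0. The sums at 25 mM and 2.8 mM were 2765 and 2804 FPKM for other islet endocrine markers, nearly all Gcg, 4.57 and 5.18 FPKM for glial markers, mostly Mbp, and 3.98 and 5.20 FPKM for leukocyte markers, all Cd68. They were 0.170 and 0.265 FPKM for stromal and 0.0664 and 0.115 FPKM for acinar and ductal markers. Steps between low values corresponded to 16770000 fragments at 25 mM and 19670000 at 2.8 mM. The part of these differences in the values of the members was not tested.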

How the data were processed

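MIN6 RNA was extracted with Trizol per the labels' protocols, for 1 library at each glucose level. The authors deposited gene-level FPKM, as the file headers state. Per the submitters' processing notes HISAT2, Cuffdiff and GRCm38 were used. Settings, annotation release, library kit and strandedness are not stated there or in the labels. Without strand, reads of a gene and its antisense partner cannot be told apart. Each file had 1 empty row, left out here.

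The members and lists were chosen with earlier results of these data known. Groups came from the treatment labels. With 1 library per group no test was possible. The log2 change used a pseudocount of 1, genes with a mean of at least 1 FPKM counted as expressed, and 1.5-fold was the threshold. Of each pathway list the 2 highest and 2 lowest expressed members are named, with all members, all bHLH-PAS relatives and the 5 genes closest in log2 change to Npas3. Further list genes are named for being listed at 0 or under 1 FPKM, and cell type markers for their share of a sum or for being listed at 0. Transcripts came from GENCODE mouse release 21, and all those listed for the members were found in it. Fragment totals and lengths were fitted to the steps of low FPKM values of genes with 1 transcript of at least 800 nt. Within 0.1 of a whole fragment were 93.0% of 2603 values at 25 mM and 93.8% of 2854 at 2.8 mM. No member has 1 transcript, so fragments are given as if all lay on a named one, and intervals cover counting error only. The fit of depth and the fold counting were tested on simulated data, with totals and lengths near the fitted ones. All simulated fragments lay on the longest transcript of a gene. The simulation therefore does not cover how fragments are shared among transcripts, or transcripts shorter than a fragment. Alternatives were other pseudocounts, filters, scalings, gene types and thresholds. The software was SciPy 1.17.1, pandas 2.3.3 and NumPy 2.4.6 under Python 3.11.15, with plots by matplotlib 3.10.9.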

Additional observations from a re-analysis of the deposited data

How the results depend on the processing

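With 1 library per group these alternatives show the effect of processing and not of replicate error. The log2 change of Npas3, -1.53, became -1.69 when 0.1 was added to FPKM in place of 1 and -1.09 when 5 was added, as a larger pseudocount shrinks every change by construction. It ran from -1.52 to -1.48 under the 3 scalings. Npas3 was the 1 member at least 1.5-fold lower under 10 alternatives. The count was 0 in a further one, added after the data were seen, without genes that have a transcript shorter than the fitted fragments, which leaves out Npas3 itself and so gives no value for it. All 33 values of Hif1a, Arnt, Arnt2 and Npas4 under the alternatives lay between -0.09 and 0.27, within their counting intervals of the reported values. Against 318 expressed genes at least 1.5-fold lower and 247 higher, 524 were lower and 364 higher after adding 0.1. After adding 5 there were 91 lower and 93 higher, without a filter 550 and 442, with a mean of at least 5 FPKM 129 and 76, and among protein-coding genes 153 and 94. Rescaling to the same sum turned the balance, with 262 lower and 300 higher, and without mitochondrial and the 10 most abundant genes there were 281 and 279. With a fold threshold below 1.5 there were 969 and 689, and at 2-fold 106 and 113. These filters, gene types and thresholds change by construction how many genes can pass. Rescaling to the same sum turned the median of the bHLH-PAS relatives to 0.02 and that of the oxygen-sensing list to 0.04, and rescaling without mitochondrial and the 10 most abundant genes turned the oxygen-sensing median to 0.02. The other pathway list medians kept their sign under the 3 scalings, and the markers were not rescaled. The median of the members other than Npas3, -0.01, turned to 0.04, 0.02 and 0.0035 under the 3 scalings and to 0.0024 after adding 5. The same-sum scaling put the median of all expressed genes at 0.04. It moved the median of the HIF-2alpha list to -0.06 and that of the AHR list to 0.12. No paired analysis was possible because each glucose level had a single library. Depth limits the members below 1 FPKM, where 1 to 18 fragments stand behind a value.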
